A study of Mus musculus with 4 samples.

Results

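The mouse miRNAs named miR-297, miR-466, miR-467 or miR-669 form a set that is treated together because most of its members come from 1 repeat-rich stretch of the genome. Members were all mouse probes on the array whose miRNA name starts with one of these 4 names, whatever the letter, number or arm after it. The rule took 61 of the 1023 mouse miRNAs on the array, with 4 named miR-297, 22 named miR-466, 12 named miR-467 and 23 named miR-669. They were measured by 162 probes of 13 to 23 bases, with 1 to 4 probes per member and 10 to 40 replicate spots per probe.

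Levels came from 1-colour arrays of 4 mouse cell lines, with 1 array per line, so that no line had a replicate. NSCL61 are glioma-initiating cells derived from neural stem cells, and NSC are the neural stem cells. OPCL61 are glioma-initiating cells derived from oligodendrocyte precursor cells, and OPC are those precursors. Glioma-initiating cells are cells able to start a brain tumour, neural stem cells give rise to neurons and glia, and oligodendrocyte precursors form the cells that make myelin. The labels give no strain or passage, and they do not say how the glioma-initiating lines were made. The study compared each glioma-initiating line with the cells it came from.

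A miRNA is a short RNA that guides the silencing machinery to messenger RNAs, mainly through its seed, bases 2 to 8 from the 5′ end. Each precursor hairpin has a 5p and a 3p arm, and usually 1 arm gives most of the mature miRNA. In rodents this group lies mostly within an intron of Sfmbt2, a Polycomb-group gene that is expressed from the paternal copy in early embryos and placenta. The hairpins there arose by tandem duplication, so that members share long stretches of sequence, many of them alternating in C and A or in G and T. On mm9, the build of the array design, 55 of the 61 members had a probe position between chr2:10388309 and chr2:10439867, a span of 51.6 kb. In RefSeq (GRCm38.p6), 72 of the 82 miRNA genes with these names lay within Sfmbt2 (chr2:10370440-10595253). Of the members, 52 had positions on chromosome 2 alone, 3 on chromosome 2 and elsewhere, and 6 elsewhere alone. The probes of 11 members name more than 1 miRNA, so that their signal belongs to several copies.

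Mature sequences in RefSeq (GRCm38.p6) matched 6 members by name, and 3 of these were above background on an array. They are shown with the seed in capitals, because the repeat enters the seed of all 3 and no 2 of the seeds are the same.

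miR-467f (chr11:69635419-69635439, minus strand): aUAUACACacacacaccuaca
miR-466i-3p (chr13:17747552-17747573, plus strand): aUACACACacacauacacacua
miR-669n (chr3:115979905-115979924, plus strand): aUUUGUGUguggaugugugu

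The probes are complementary to the 3′ end of the miRNA. Of each member below the brightest probe is shown 5′ to 3′, with its longest stretch of alternating C and A or G and T, here called the run, in capitals. The first 7 are the members above background in NSC, and every one has a run of at least 10 letters.

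miR-466i-5p: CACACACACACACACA
miR-467f: tgtagGTGTGTGTGTGT
miR-669p-3p: atacGTGTGTGTGTGTatg
miR-669c-3p: tttactTGTGTGTGTGTG
miR-466h-3p: GTGTGTGTGTGcgt
miR-466f-3p: gtgtgtaTGTGTGTGTG
miR-466i-3p: tagtgtgtaTGTGTGTGTG

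The next 8 are the members seen above background in NSCL61 but below it in NSC. All but miR-669f-3p have runs of 8 letters or fewer.

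miR-669f-3p: atacGTGTGTGTGTatgt
miR-467a-3p: tgtagGTGTGTGTatgtat
miR-467d-3p: gtgtagGTGTGTGTatg
miR-466b-3p: tcttaTGTGTGcgtgta
miR-467b-5p: catatACAtgcaggcact
miR-467a-5p: cgcatatACAtgcaggca
miR-467e-5p: acatatacatgctCACACt
miR-669n: acacacatcCACACACAa

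Of the 61 members, 14 were well above background in NSCL61, 7 in NSC, 3 in OPCL61 and 1 in OPC. A member counted as such when at least 50% of the spots of one of its probes carried the scanner's flag for signal well above background. Over the 4 arrays this held for 15 members (24.6%), close to the 26.5% of all mouse miRNAs on the array. Among all miRNAs, 228 were above background in NSCL61, 170 in NSC, 206 in OPCL61 and 139 in OPC. Of the members 23.0% were above background in NSCL61 and 11.5% in NSC, against 22.3% and 16.6% of all miRNAs on those arrays. In OPCL61 and OPC the members' shares were 4.92% and 1.64%, against 20.1% and 13.6% of all miRNAs.

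By name, none of the 4 miR-297 members, 5 of 22 miR-466, 6 of 12 miR-467 and 4 of 23 miR-669 members were above background on any array. By arm these were 9 of 26 members named 3p, 4 of 25 named 5p and 2 of 10 with no arm in the name. Both arms were measured for 30 hairpin names, of which 3 had both arms above background, though not always on the same array, 9 the 3p arm alone, 2 the 5p arm alone and 16 neither. Some names share a probe, so these 30 are not independent. miR-466i and miR-467a had both arms above background in NSCL61. The third was miR-669c, with miR-669c-3p above background in NSC alone and the probe of miR-669n, which also names miR-669c-5p, in NSCL61 alone. The 2 with the 5p arm alone were miR-467b and miR-467e. Of the 4 members named 5p that were above background, 3 were among the 5 of the miR-467 name group, and these 3 were so in NSCL61 alone.

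miR-466i-5p, whose probe is an unbroken CA repeat, was the brightest member on every array and the only one above background on all 4. Its signal was 272 ± 15.5 units in NSCL61, 451 ± 12.4 in NSC, 299 ± 34.8 in OPCL61 and 130 ± 8.63 in OPC (SD over 20, 16, 20 and 19 spots). These SDs, like all given here, are over replicate spots of 1 array and measure technical error within it. Before scaling the signal was highest in NSC and lowest in OPC, and OPCL61 was 1.09-fold above NSCL61 (log2 change 0.13, spot SE 0.04). With the scaling given below, the log2 level was 9.33 in NSC, 8.33 in OPC, 7.83 in OPCL61 and 6.65 in NSCL61. NSC was highest either way, and the order of the other lines depends on the scaling. miR-466i-5p made up 35.2% of the summed signal of members above background in NSCL61, 63.9% in NSC and 82.8% in OPCL61, and in OPC no other member was above background. Its annotated positions lie on chromosome 13 (chr13:17839361-17839376 is the first), outside Sfmbt2.

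The other 6 members above background in NSC were all dimmer in NSCL61 than in NSC before any scaling. miR-467f, from chromosome 11 (chr11:69448987-69449002), gave 36.8 ± 4.25 units in NSCL61, 61.4 ± 3.23 in NSC, 14.3 ± 3.79 in OPCL61 and 12.04 ± 2.77 in OPC. miR-466h-3p gave 29.2 ± 3.29 units in NSCL61, 57.7 ± 5.62 in NSC, 40.4 ± 4.48 in OPCL61 and 8.35 ± 2.38 in OPC. miR-669p-3p gave 28.8 ± 3.75 units in NSCL61, 47.5 ± 1.84 in NSC, 8.90 ± 5.21 in OPCL61 and 9.06 ± 2.22 in OPC. In each of these the NSC mean was the highest of the 4, and miR-466h-3p alone was above background in OPCL61 too. miR-466f-3p gave 21.6 ± 2.36 units in NSCL61, 33.6 ± 4.91 in NSC, 11.4 ± 4.43 in OPCL61 and 7.72 ± 5.30 in OPC. miR-466i-3p gave 21.0 ± 3.32 units in NSCL61, 29.0 ± 4.63 in NSC, 7.12 ± 2.84 in OPCL61 and 7.17 ± 2.43 in OPC. miR-669c-3p gave 15.8 ± 4.64 units in NSCL61, where it was not above background, 27.2 ± 3.02 in NSC, 5.82 ± 2.92 in OPCL61 and 3.67 ± 2.77 in OPC. None of these 3 was above background in OPCL61 or OPC.

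In their brightest probes, the 8 members detected in NSCL61 but not NSC had the opposite order on those 2 arrays before scaling. They were picked by detection on the same arrays, so that this order is a description. miR-467a-3p, the second brightest member in NSCL61, gave 82.5 ± 8.21 units in NSCL61, 2.75 ± 3.73 in NSC, 12.2 ± 4.87 in OPCL61 and 4.22 ± 3.55 in OPC. miR-669f-3p, whose probe also names miR-669a-3p and miR-669o-3p, gave 59.2 ± 3.87 units in NSCL61, 10.2 ± 3.47 in NSC, 21.4 ± 3.06 in OPCL61 and 5.64 ± 2.74 in OPC. It was the only one of the 8 above background in OPCL61. miR-467b-5p gave 52.7 ± 2.77 units in NSCL61, 0.0475 ± 2.63 in NSC, 10 ± 3.26 in OPCL61 and 7.21 ± 3.28 in OPC. miR-466b-3p, whose probe also names miR-466a-3p, gave 49.2 ± 5.24 units in NSCL61, −0.116 ± 2.15 in NSC, 7.12 ± 2.89 in OPCL61 and 3.86 ± 2.65 in OPC. A signal near or below 0 here is a background-subtracted value and means that the spots were no brighter than their surroundings.

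A further 3 members had nearly equal signals in NSCL61. miR-467a-5p gave 34.8 ± 3.83 units in NSCL61, 1.32 ± 2.05 in NSC, 5.48 ± 3.50 in OPCL61 and 5.20 ± 3.14 in OPC. miR-467d-3p gave 34.6 ± 3.69 units in NSCL61, 2.33 ± 3.099 in NSC, 5.99 ± 3.45 in OPCL61 and 3.92 ± 2.37 in OPC. miR-467e-5p gave 34.5 ± 3.33 units in NSCL61, −1.11 ± 2.90 in NSC, 5.20 ± 3.47 in OPCL61 and 4.61 ± 2.26 in OPC. NSCL61 stood apart from the other 3 arrays for all 3 of them. miR-669n gave 17.3 ± 1.79 units in NSCL61, 9.93 ± 2.19 in NSC, 13.3 ± 3.08 in OPCL61 and 9.003 ± 3.07 in OPC. In NSCL61 56.2% of its spots were well above background, so that it was just inside the detection limit of 50%. The other probe of miR-669n, of 17 bases, was not above background on any array and was no brighter in NSCL61 than in NSC. That probe gave 10.8 units in NSCL61, 10.97 in NSC, 15.9 in OPCL61 and 9.72 in OPC.

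**Figure D1:**
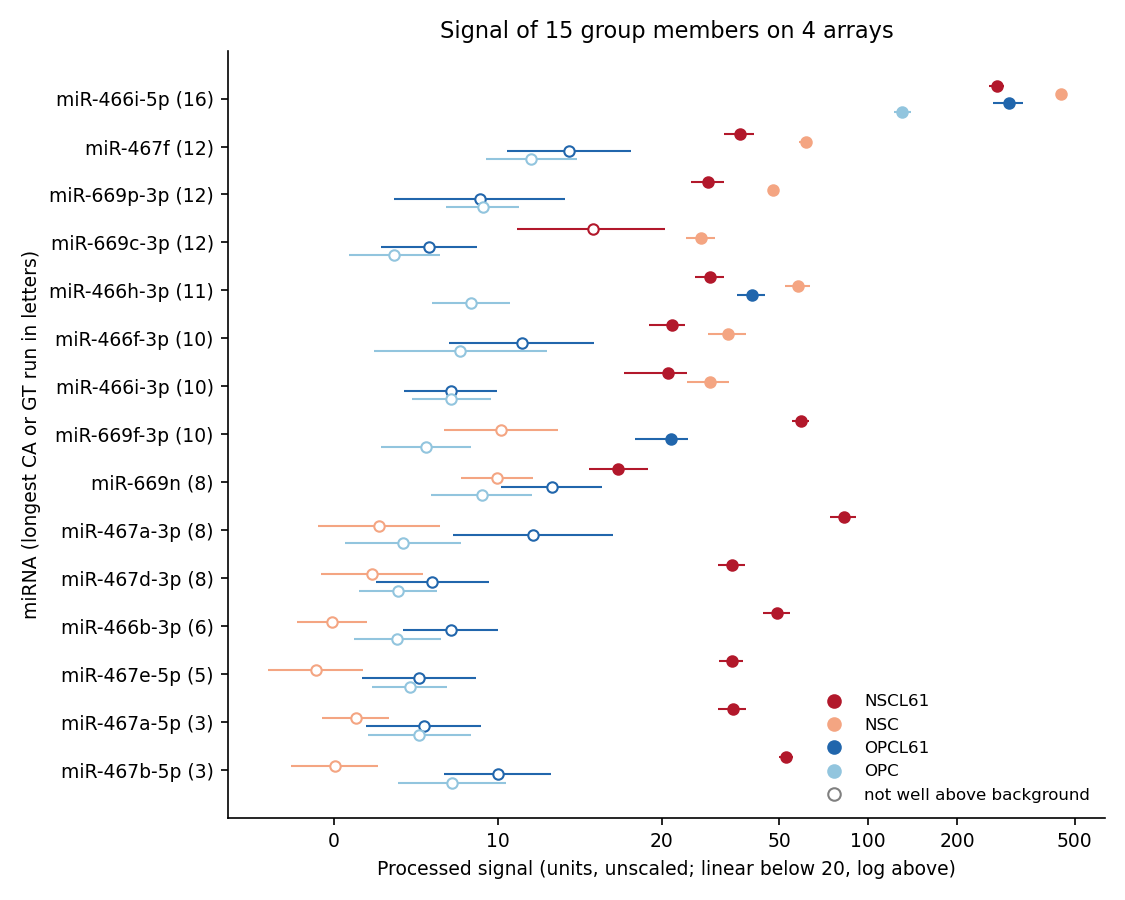
Processed signal in units (x axis, unscaled, linear below 20 and log above) of the 15 members above background on any array, with points for the mean and bars for the SD over replicate spots of 1 array. Open points are arrays where the member was not well above background, and the number beside each name is the longest CA or GT run of its brightest probe. The 7 upper members have their highest signal in NSC, and the 8 lower ones in NSCL61.

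All 8 members detected in NSCL61 but not NSC had a probe position in the Sfmbt2 stretch of chromosome 2, miR-669n also having one on chromosome 3. Of the 7 members above background in NSC, 4 had a position in that stretch and 3 (miR-466i-5p, miR-466i-3p and miR-467f) did not. Probes of 8 members had 8 or more annotated positions (up to 15), a limit chosen after the values were seen. Of these, 5 were above background in NSCL61 and 0 in NSC: miR-466b-3p, miR-467a-3p, miR-467a-5p, miR-467d-3p and miR-669f-3p. The other 53 members had 1 to 4 positions, and 9 of them were above background in NSCL61 and 7 in NSC. The other 3 of the 8, miR-669a-5p, miR-466p-5p and miR-669b-5p, were not above background on any array.

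The other 46 members were not well above background on any array. Over all 126 probes of these members, mean signals lay between −4.03 and 13.6 units in NSCL61, −3.91 and 6.17 in NSC, −5.02 and 7.07 in OPCL61, and −3.76 and 5.05 in OPC. The highest was the 19-base probe of miR-467c-5p, with 13.6 ± 2.77 units in NSCL61, 0.450 ± 2.85 in NSC, 3.12 ± 1.79 in OPCL61 and 0.726 ± 2.80 in OPC. It had the same order of NSCL61 and NSC as miR-467a-5p, miR-467b-5p and miR-467e-5p, but stayed under the detection limit in NSCL61. The next in the miR-467 name group was miR-467d-5p, whose 15-base probe gave 5.19 units in NSCL61 and 6.17 in NSC. In the miR-669 name group the highest were miR-669a-5p, with 9.03 ± 2.11 units in NSCL61 and 0.213 ± 3.08 in NSC, and miR-669b-5p, with 8.39 ± 2.15 units in NSCL61 and −1.35 ± 2.26 in NSC. In the miR-466 name group the highest were miR-466c-5p, with 7.62 ± 2.44 units in NSCL61 and −0.732 ± 2.98 in NSC, and miR-466g, with 4.48 units in NSCL61 and 4.55 in NSC. The highest miR-297 members were miR-297a-3p, with 7.57 ± 2.93 units in NSCL61 and 2.49 ± 5.13 in NSC, and miR-297c-5p, with 6.56 ± 2.54 units in NSCL61 and 0.00642 ± 2.99 in NSC. Of these 8 members, 6 had their highest signal in NSCL61, still below its detection limit. For these members the arrays give only an upper bound, which is not a statement that the miRNA is absent.

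Probes with the longest runs were seen most often, and this grouping was made after the values were seen and is a description. All 8 members with a run of 10 letters or more were above background on some array, with 7 in NSCL61, 7 in NSC, 3 in OPCL61 and 1 in OPC. With a run of 8 or 9 letters 3 of 14 members were above background in NSCL61, with 6 or 7 letters 1 of 23, with 4 or 5 letters 1 of 11, and with 1 to 3 letters 2 of 5. The last 2 were miR-467a-5p and miR-467b-5p, so that below 10 letters the share in NSCL61 did not rise with the run. In NSC, OPCL61 and OPC 0 members with a run under 10 letters were above background. Among the other miRNAs 22.3% with a run of 1 to 3 letters and 22.6% with 4 or 5 letters were above background in NSCL61, with 18.3% and 12.4% in NSC. The members just inside the limit, with 10 letters, were miR-466f-3p, miR-466i-3p and miR-669f-3p. Those just outside it, with 9 letters, were miR-466p-5p, miR-466a-5p, miR-467g and miR-669a-3-3p, and none was above background.

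**Figure D2:**
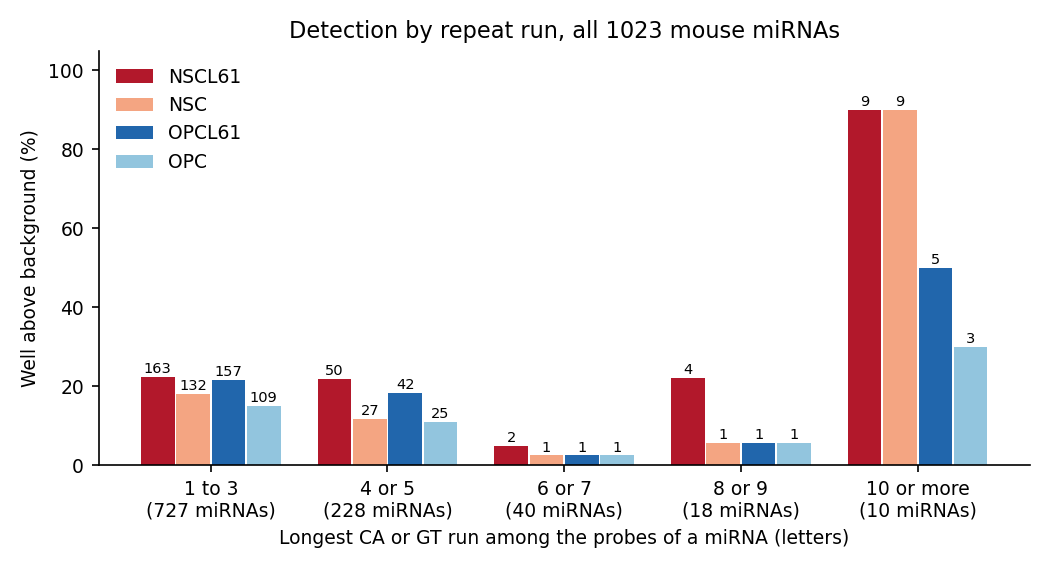
Share of mouse miRNAs well above background (y axis, %, starting at 0) by the longest CA or GT run of their probes (x axis, letters), with a bar per array and the number of miRNAs above each bar. Of the 10 miRNAs with a run of 10 or more letters, 8 of them members of the group, 9 were above background in NSCL61, 9 in NSC, 5 in OPCL61 and 3 in OPC.

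Outside the group, 4 other mouse miRNAs had a run of 9 letters or more. Their probes are shown to set them beside the members, again with the run in capitals.

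miR-574-5p: acacactCACACACACAC
miR-3082-5p: acacagACACACACAC
miR-1187: ttacacacatACACACACA
miR-32-3p: aatatCACACACACtaaattg

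miR-574-5p gave 114 ± 6.199 units in NSCL61, 208 ± 9.32 in NSC, 176 ± 22.7 in OPCL61 and 70.3 ± 6.44 in OPC. miR-3082-5p gave 32.9 ± 3.54 units in NSCL61, 80.5 ± 4.34 in NSC, 116 ± 7.42 in OPCL61 and 45.2 ± 4.92 in OPC. miR-1187 gave 42.5 ± 3.79 units in NSCL61, 78.2 ± 6.59 in NSC, 74.1 ± 6.09 in OPCL61 and 34.0 ± 4.27 in OPC. Before scaling all 3 were dimmer in NSCL61 than in NSC and brighter in OPCL61 than in OPC, as miR-466i-5p was. In OPCL61 against OPC the median log2 change of all miRNAs without scaling was 1.35. With the scaling given below, the changes there were −0.36 for miR-574-5p, −0.31 for miR-3082-5p and −0.55 for miR-1187, so that direction depends on the scaling. miR-32-3p was not above background on any array. Whether the signals of long-run probes came from the miRNA named or from other RNA with the same repeat was not tested.

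The first comparison, NSCL61 against NSC, asked which members set the glioma-initiating line apart from the neural stem cells. The arrays differed in overall brightness, with a summed signal of 251260 units in NSCL61, 77997 in NSC, 95030 in OPCL61 and 32111 in OPC. Each array was therefore scaled to the 75th percentile of the 182 probes above background on all 4, by log2 shifts of 1.44 for NSCL61, −0.52 for NSC, 0.38 for OPCL61 and −1.30 for OPC. With scaling, the 153 miRNAs measured in both NSCL61 and NSC had a median log2 change of −1.03, and without scaling 0.93, so that every change below is read against that median. Members made up 0.307% of the summed signal in NSCL61 and 0.905% in NSC, and 0.377% in OPCL61 and 0.405% in OPC. Fewer cells expressing a miRNA and less of it per cell cannot be told apart in such bulk RNA.

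A member was called changed when it was above background in both lines and the difference reached 2-fold and exceeded 2 standard errors over spots. Where 1 line was not above background, a bound of at least 2-fold was needed. Of the 15 members above background in either line, 7 were called lower in NSCL61 than in NSC and 0 higher. Over all 245 miRNAs so measured, 38.8% were called lower and 11.8% higher. For the 8 members detected in NSCL61 but not NSC, the scaled NSC floor allowed a bound of at most 1.18-fold higher (miR-467a-3p). A call of higher was out of reach for them, whatever their true change. The 7 called lower were 7 of the 8 members with a run of 10 letters or more. The eighth, miR-669f-3p, was brighter in NSCL61 than in NSC before scaling, and with scaling its bound gave no direction. miR-466h-3p was 7.67-fold lower, miR-467f 6.50-fold, miR-669p-3p 6.46-fold, miR-466i-5p 6.43-fold, miR-466f-3p 6.0-fold, miR-466i-3p 5.32-fold and miR-669c-3p at least 5.64-fold. The 6 measured on both arrays had log2 changes between −2.94 (miR-466h-3p, spot SE 0.05) and −2.41 (miR-466i-3p, spot SE 0.07), with a median of −2.69. That is 1.66 lower on the log2 scale than the median of all miRNAs (−1.66 with and without scaling). Without scaling the same 6 lay between −0.98 and −0.46, with a median of −0.73, so that none reached 2-fold.

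The 3 other miRNAs with long runs moved as those 6 members did, with log2 changes between −3.25 and −2.82 (−1.30 and −0.87 without scaling). Their limit was a run of 9 letters or more, against 10 for the members, and miR-1187 has 9. The remaining 144 miRNAs measured in both lines had a median of −0.90 (1.06 without scaling), and 7 of them lay within the range of the 6 members.

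The 8 members detected in NSCL61 but not NSC have no measured change, only a bound, and its direction depends on the scaling. With scaling the bound was above 1-fold for miR-467a-3p alone, at least 1.18-fold higher. Without scaling 4 of the 8 were called higher and 0 members lower, where 49.0% of all miRNAs were called higher and 6.94% lower. These were miR-467a-3p at least 4.59-fold, miR-669f-3p at least 3.30-fold, miR-467b-5p at least 2.94-fold and miR-466b-3p at least 2.73-fold higher. What scaling between arrays cannot move is the distance between 2 members on the same pair of arrays. By that measure the 8 lay above the median change of the 6 long-run members by at least 0.74 (miR-669n) to at least 2.93 (miR-467a-3p) on the log2 scale. The 8 were singled out by their values in these lines, so this distance is a description.

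**Figure D3:**
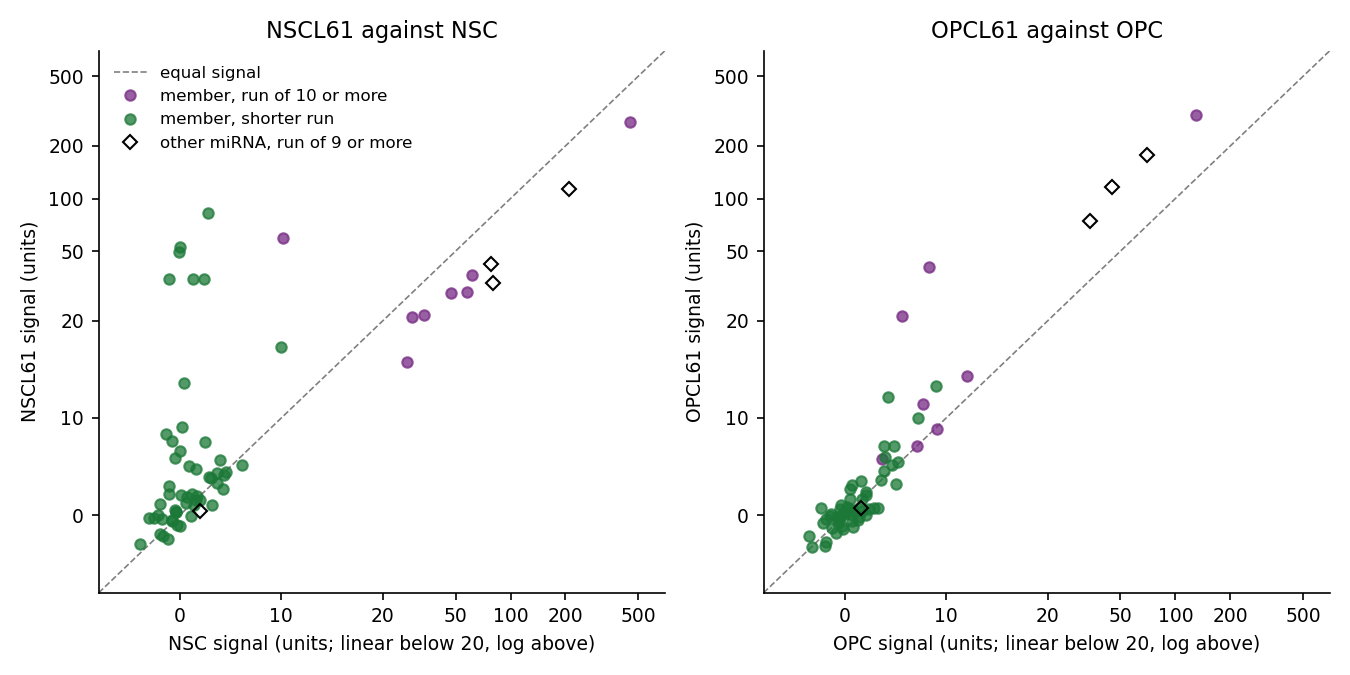
Unscaled signal in units (both axes linear below 20 and log above) of the 61 members in NSCL61 against NSC and in OPCL61 against OPC, coloured by run length, with the 4 other miRNAs with long runs as diamonds and the line of equal signal dashed. In the first panel the long-run members other than miR-669f-3p lie below the line and 8 members rise along the NSCL61 axis, and in the second panel most members lie near 0.

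Members with nearly the same probe could have the same order between the lines or differ in it. The probes of miR-466f-3p and miR-466i-3p share their last 17 letters, with a run of 10 in both. They gave 21.6 and 21.0 units in NSCL61, against 33.6 and 29.0 in NSC. The probes of miR-467a-3p and miR-467d-3p are the same but for their end letters. They gave 82.5 and 34.6 units in NSCL61, against 2.75 and 2.33 in NSC. Those of miR-467a-5p and miR-467b-5p are also the same but for their end letters, with 34.8 and 52.7 units in NSCL61. In NSC they gave 1.32 and 0.0475 units. The 2 members of such a pair are not separate measurements. The probes of miR-669f-3p and miR-669p-3p share their first 14 letters, and the run is 10 letters in miR-669f-3p and 12 in miR-669p-3p. Yet miR-669f-3p was 59.2 units in NSCL61 against 10.2 in NSC, and miR-669p-3p was 28.8 units in NSCL61 against 47.5 in NSC. The probes of miR-467a-3p and miR-467f share their first 13 letters, with runs of 8 and 12, and gave 82.5 and 36.8 units in NSCL61, against 2.75 and 61.4 in NSC. In both pairs that differed in order, the probe with the longer run was the one brighter in NSC. The brightest probe of miR-467c-3p also has a run of 8 letters, with other letters at its 5′ end, and gave 4.75 units in NSCL61 against 1.62 in NSC.

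miR-467c-3p: gtatagGTGTGTGTatgtat

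Nested probes of 1 member, which end at different letters of the same miRNA, showed how signal rose with length. The 4 probes of miR-466f-3p grow by 1 letter each, and their runs are 7, 8, 9 and 10 letters. They gave 0.0286, 2.73, 10.4 and 21.6 units in NSCL61, and −1.08, 4.90, 20.8 and 33.6 units in NSC. The longest was above background on both arrays, the 16-letter one in NSC alone, and the 2 shorter ones on neither. The 4 probes of miR-467a-3p, of 17 to 20 letters with a run of 8 throughout, gave between 58.7 and 82.5 units in NSCL61 and between −0.674 and 3.97 in NSC. All 4 were above background in NSCL61 and none in NSC, whatever their length. The 2 probes of miR-669f-3p, of 17 and 18 letters, gave 15.3 and 59.2 units in NSCL61, against 4.70 and 10.2 in NSC.

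**Figure D4:**
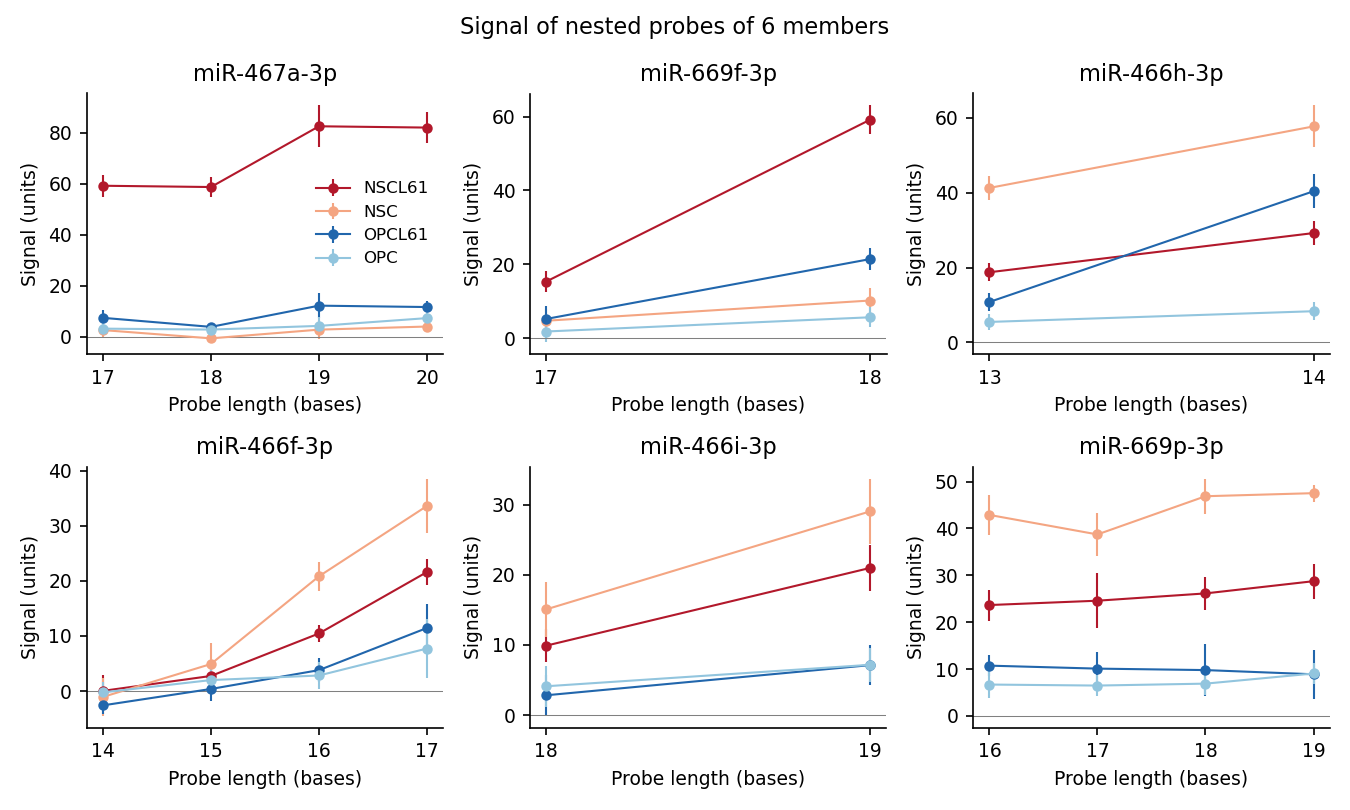
Mean signal in units (y axis, SD over spots as bars) of the nested probes of 6 members against probe length in bases (x axis), with a line per array. NSCL61 is highest for both probes of miR-669f-3p and all 4 of miR-467a-3p, NSC is highest at the longest probe of the other 4, and miR-466h-3p in OPCL61 climbs from 10.8 to 40.4 units with 1 added base.

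OPCL61 was set against OPC for the same question in the oligodendrocyte lineage, where few members were measured. Of the 3 members above background in either line, 0 were called higher and 0 lower, where 14.5% of all 214 miRNAs measured were called higher and 20.6% lower. With scaling, the bounds of miR-466h-3p and miR-669f-3p, not above background in OPC, gave no direction, so neither could be called higher. miR-466i-5p was 1.41-fold lower with scaling (log2 change −0.49, spot SE 0.05), under the 2-fold limit, and the median of all miRNAs measured in both was −0.33. Without scaling miR-466i-5p was 2.28-fold higher (log2 change 1.19) and miR-466h-3p at least 2.35-fold higher, so the direction depends on the scaling. Without scaling 2 members were called higher and 0 lower, where 55.6% of all miRNAs were called higher and 1.87% lower. Relative to the median of all miRNAs, the log2 change of miR-466i-5p was −0.16 in OPCL61 against OPC and −1.66 in NSCL61 against NSC, and the difference between the lineages was not tested, with 1 array per line.

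OPC was set against NSC to compare the starting cells. Of 7 members above background in either line, 2 were called lower in OPC and 0 higher, where 11.5% of all 200 miRNAs measured were called lower and 14.0% higher. miR-466i-5p was 2.01-fold lower, just past the limit (log2 change −1.01, spot SE 0.02), and miR-467f at least 2.09-fold lower. Without scaling 4 members were called lower and 0 higher, where 32.0% of all miRNAs were called lower and 6.0% higher. OPC had the dimmest array, and 6 of the 7 members seen in NSC were not above background in it.

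OPCL61 was set against NSCL61 to compare the glioma-initiating lines. Of 14 members above background in either line, 2 were called higher in OPCL61 and 1 lower, where 34.8% of all 256 miRNAs measured were called higher and 12.1% lower. miR-466h-3p was 2.88-fold higher in OPCL61 (log2 change 1.53, spot SE 0.05) and miR-466i-5p 2.27-fold higher (log2 change 1.19, spot SE 0.04), and these had the largest changes among the 3 measured in both. miR-467a-3p was at least 2.11-fold lower. miR-669f-3p, measured on both arrays, was 1.32-fold lower (log2 change −0.40, spot SE 0.04), which was the smallest change and no call. The median of all miRNAs measured in both lines was 0.38. The split depends on the scaling: without it 0 members were called higher and 4 lower, where 15.6% of all miRNAs were called higher and 39.5% lower. Without scaling miR-466i-5p was 1.09-fold and miR-466h-3p 1.38-fold higher in OPCL61.

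Fitted over both lineages together, with lineage as a term, NSCL61 and OPCL61 were set against NSC and OPC with limma across the 206 miRNAs above background on at least 2 arrays. Of these 0.485% (1 miRNA) passed an adjusted p of 0.05, and of the 7 members tested 0 did. At an unadjusted p under 0.05 there were 4 members, and 50 of all 206 miRNAs. miR-466i-5p, the only one of the 7 measured on all 4 arrays, had a log2 change of −1.59 (SE 0.70; limma, adjusted p = 0.248). The other 6 entered the fit at the array's lowest measured level, or close to it, wherever they were not above background. miR-466f-3p, miR-466i-3p, miR-467f and miR-669p-3p, the 4 at an unadjusted p under 0.05, were below background in both OPCL61 and OPC, so that their difference in that lineage was set by the scaled floors of the 2 arrays (−1.52 on the log2 scale between floors) and their fitted change is not a measured one. Their adjusted p lay between 0.115 and 0.139 by limma, and those of miR-466h-3p and miR-669f-3p were 0.330 and 0.468. Without scaling 4 of the 7 had a lower mean in the glioma-initiating lines and 3 a higher one, so the direction depends on the scaling. The fit measures the spread between 2 lineages, not between cultures.

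The labelled cell types were checked against miRNAs known for them. Of 4 miRNAs listed for neural stem cells, miR-9-5p and miR-9-3p, abundant in neural progenitors, were above background in NSCL61, NSC and OPC and not in OPCL61. The others of that list were miR-125b-5p, above background on all 4 arrays, and miR-124-3p, above background in NSC alone. miR-124-3p is a miRNA of neurons, so that its detection does not mark stem cells. The summed signal of the list was 7391.5 units in NSCL61, 3021.6 in NSC, 3427.5 in OPCL61 and 1222.8 in OPC. Of 3 miRNAs of the oligodendrocyte lineage, 0 were above background in OPCL61, 1 in OPC, 2 in NSCL61 and 3 in NSC. miR-219-5p, which promotes oligodendrocyte maturation, was above background in NSC and not in OPC. All 3 blood and microglial, all 3 muscle and the 1 hepatocyte markers were below background on all arrays. miR-205-5p, 1 of 5 epithelial markers, was above background in NSCL61 alone, as was miR-126-3p, 1 of 2 endothelial markers. Of 4 markers of fibroblasts, pericytes and smooth muscle, miR-214-3p was above background in NSCL61 alone and miR-199a-3p in NSCL61, OPCL61 and OPC. The summed signals of the epithelial and endothelial lists were 298.5 and 25.8 units in NSCL61 and 0 on the other arrays. That of the fibroblast list was 497 units in NSCL61, 0 in NSC, 34.5 in OPCL61 and 19.3 in OPC. The part of these cell types in the members' signals was not tested. Of 3 markers of pluripotent stem cells and placenta, where Sfmbt2 is active, miR-290-5p alone was above background, in NSCL61, NSC and OPCL61. No spot was saturated on any array, and 4 to 5 of 1000 negative control spots per array carried the flag for signal well above background.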

How the data were processed

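Total RNA (100 ng per array, Cy3, per the labels' protocols) of 4 mouse cell lines was hybridised to 1-colour miRNA arrays. Images were processed in Agilent Feature Extraction, version 10.7.3.1 according to the submitters' processing notes. The deposited processed signal is an intensity per spot, background-subtracted and not normalized between arrays, per the file headers. The deposited series table repeats these intensity values (largest difference 0). Gene names and mm9 positions are those of the array design.

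Spots marked as outliers by the software were left out (115 to 146 member spots per array). Signals in units are means over the remaining spots. For changes, intensity under the array's lowest spot signal well above background (16.3 to 18.2 units) was set to it, log2 was taken, spots were averaged, and each array was scaled to the 75th percentile of 182 shared probes. Each miRNA took the level of its brightest probe over the 4 arrays, judged by the mean signal where no probe was above background. A fold bound used the lowest level well above background, or the dim probe's own where higher. Single arrays allow no test between 2 lines. The labels name no separate cultures, and the number of arrays limits the precision.

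limma 3.58.1 in R 4.3.3 (trended prior variance, Benjamini-Hochberg adjustment) was fitted over the 206 miRNAs above background on at least 2 arrays. It was also run on simulated data, the outcome of which is not used here. Alternatives covered scaling, background correction, outlier spots, the level of a miRNA, the filter and the detection rule. Every member above background was named, with the 2 highest of the others in each name group. The members, lists and markers were chosen with earlier results of these data known, and the limits on run length and on probe positions were chosen after the values were seen.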

Additional observations from a re-analysis of the deposited data

How the results depend on the processing

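The counts of called members depended on the settings. For the 2-fold calls, the share of all miRNAs called was counted only with the main scaling and without scaling, and is given above. In the other settings a count of members cannot be told apart from a shift of the whole array. Without scaling, members called higher and lower were 4 and 0 in NSCL61 against NSC, 2 higher in OPCL61 against OPC, 4 lower in OPC against NSC, and 0 higher and 4 lower in OPCL61 against NSCL61. With the 75th percentile over all probes these counts were 4 and 1, 2 higher, 4 lower, and 0 and 5. With median scaling over shared probes 0 were higher and 4 lower in OPCL61 against NSCL61, and with quantile normalization 0 were higher there. With normexp background correction 0 were lower in OPC against NSC and 0 lower in OPCL61 against NSCL61. With outlier spots kept these were 1 and 0, and with the mean over probes 0 and 0. With the total gene signal of the software, 2 were higher in NSCL61 against NSC, 4 lower in OPC against NSC, and 1 higher and 7 lower in OPCL61 against NSCL61. With every spot of a probe required to be above background, 0 were lower in OPC against NSC. With any single spot enough, 9 members were above background in OPCL61 and 4 in OPC, 3 were lower in OPCL61 against OPC, 1 lower in OPC against NSC, and 1 higher in OPCL61 against NSCL61. With no filter, 54 were lower in NSCL61 against NSC, 59 lower in OPCL61 against OPC and 50 higher in OPCL61 against NSCL61, and limma called 58 of 61 members and 911 of all 1023 miRNAs. There, members at the floor of both arrays differ by the scaling shift alone. limma called 3 of 7 members with median scaling, and 30 of all 206 miRNAs. With normexp it called 6 members, and 77 of 206. Where no construction is named, the cause was not tested.

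The median change of the 5 to 8 members measured in both NSCL61 and NSC was below 0 in all 11 settings that kept the filter, from −2.85 to −0.73, and below the median of all miRNAs by 0.74 to 1.85 on the log2 scale (−0.74 to −1.85). The distance of the 8 NSCL61 members above them was at least 0.31 to 1.11 with normexp and at least 1.22 to 2.58 with quantile normalization. No array could be left out, since each line had 1.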

Other observations

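For 2 members with long runs, the signal in OPCL61 was higher with 1 added base. Neither shorter probe was above background there, so that no ratio between the probes was measured in OPCL61. The 14-base probe of miR-466h-3p gave 40.4 ± 4.48 units in OPCL61 and the 13-base probe 10.8 ± 2.46, although both hold the same run of 11 letters and differ by 1 base at the 3′ end. On the other arrays the 2 probes were closer, with 29.2 and 18.7 units in NSCL61, 57.7 and 41.3 in NSC and 8.35 and 5.49 in OPC. The ratio of the longer to the shorter probe was 1.56 in NSCL61 and 1.40 in NSC, where both were above background. miR-669f-3p gave 21.4 ± 3.06 units in OPCL61 with its 18-base probe and 5.18 ± 3.43 with its 17-base probe, which hold the same run of 10 letters. In NSCL61 the same 2 probes gave 59.2 and 15.3 units, in NSC 10.2 and 4.70, and in OPC 5.64 and 1.78. Such a rise was not particular to OPCL61 or to long runs. In NSCL61 miR-467d-3p, with a run of 8 letters in both probes, gave 5.80 units with 16 bases and 34.6 with 17.

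miR-466h-3p: GTGTGTGTGTGcg
miR-466h-3p: GTGTGTGTGTGcgt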
